A study of Mus musculus with 12 samples.

Results

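The collagen chains are the genes that encode the polypeptides of the collagens, the main proteins of the extracellular matrix. Every probe set with 1 gene symbol of the form Col, a number, the letter a and a number was taken, and each gene was read from its probe set with the highest mean over the 12 arrays. This gave 36 collagen genes, with 58 probe sets, out of 12393 named genes on an array of 22690 probe sets. They comprised 9 fibrillar chains, 6 chains of type IV, 3 of type VI, 9 fibril-associated (FACIT) chains and 2 multiplexins. The other members were 3 transmembrane chains, 2 short chains, the anchoring fibril chain Col7a1 and Col26a1.

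Collagen chains wind together into a helix, which holds either copies of a single chain or the products of several genes. Fibrillar collagens of types I, III and V form the fibres of connective tissue and of tumour stroma, while types II and XI form the fibrils of cartilage, on whose surface type IX collagen sits. Type IV collagen makes the sheet of the basement membrane that underlies epithelium and surrounds vessels, type VI forms beaded microfibrils beside it, and types XV and XVIII carry sugar chains in the basement membrane zone.

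The tumours were mammary tumours of female FVB mice carrying an MMTV-c-myc transgene, in which the mouse mammary tumour virus promoter drives the Myc oncogene. 6 arrays held RNA of tumours with the Hunk knockout genotype, in which exon 1 and the likely promoter of Hunk, a kinase related to Snf1, on 1.1 kb, gave way to a pGKneo cassette. The other 6 arrays held RNA of tumours with the Hunk wild-type genotype, and the transgene was shared by both groups. The allele was made in E14 embryonic stem cells, the females were mated 2 times, and the mice were killed when tumours reached at most 20 mm across. The age of the mice is not given in the sources used here. Whether each numbered array stands for its own mouse is not stated in the labels, so the p-values measure only the spread between these 12 samples, and some of that spread may be technical. A numbered tumour below is the sample on 1 array.

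Values are deposited log2 GCRMA signals, and a positive difference means a higher level in the knockout. Each array's background was the highest of its Bacillus control probe sets, 3.71 ± 0.15 in the knockout and 3.60 ± 0.10 in the wild type (SD, n = 6 each). Hunk averaged 2.95 ± 0.17 in the knockout and 4.21 ± 1.05 in the wild type (SD, n = 6 each). It was above background in 0 of 6 knockout and 4 of 6 wild-type tumours, which bounds the decrease at 1.41-fold or more (two-sided exact permutation p = 0.0108, limma adjusted p = 0.181 over all genes without a filter). The beta-actin 3-prime minus 5-prime difference, a sign of RNA length, was larger in the knockout, at 1.51 ± 0.15, than in the wild type, at 1.29 ± 0.05 (two-sided exact permutation p = 0.0108). Knockout tumours 4 and 5 were the most similar pair of arrays in their group, with an SD of their difference over all probe sets of 0.259 against 0.442 for the next pair. Of 9 luminal epithelial markers, 3 rose in the knockout (Cd24a, Krt19 and Elf5), beside 1.66% of all genes. The signs were mixed, with 6 positive and 3 negative differences. Among the 9, 5 were higher and 1 lower at an unadjusted limma p under 0.05, beside 8.97% and 10.5% of all genes. The mean of the 9 lay between 9.98 and 10.28 in the knockout and between 8.93 and 9.85 in the wild type. Most fibroblast markers did not exceed background. 8 of 13 measured, among them Pdgfra, Thy1, Fap and Dcn, were at or below background on all 12 arrays, and so were 6 of 10 endothelial markers, among them Pecam1 and Cdh5. In these bulk samples, fewer cells of a type and less RNA per cell cannot be told apart.

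Of the 36 chains, 23 had a mean above the filter of 3.98 (the median probe-set mean) and were tested with limma over 6825 genes, with Benjamini-Hochberg adjustment and a threshold of 0.05. Col9a1, a chain of type IX collagen, fell in the knockout and was the only chain past the threshold. That is 1 of 23 chains (4.35%), beside 3.34% of all genes tested (1.66% higher and 1.68% lower in the knockout). At an unadjusted limma p under 0.05, 6 chains were higher and 3 lower in the knockout (39.1% of 23), beside 19.5% of all genes (8.97% higher and 10.5% lower). The chains went both ways, 12 with a positive and 11 with a negative difference. The median difference was 0.63 for the 8 tested fibrillar chains, 0.85 for the 3 type VI chains, -0.33 for the 5 type IV chains, -1.24 for the 4 FACIT chains and -0.69 for the 2 multiplexins, against 0.01 for all genes. Col2a1 and Col11a1 passed the filter only through the wild type, where they were high. Col2a1 is 1 of the 3 lower at an unadjusted p under 0.05, so that share is a description and supports nothing about the chains. A second probe set past the filter existed for 13 chains, and all 13 had the sign of the first.

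**Figure D1:**
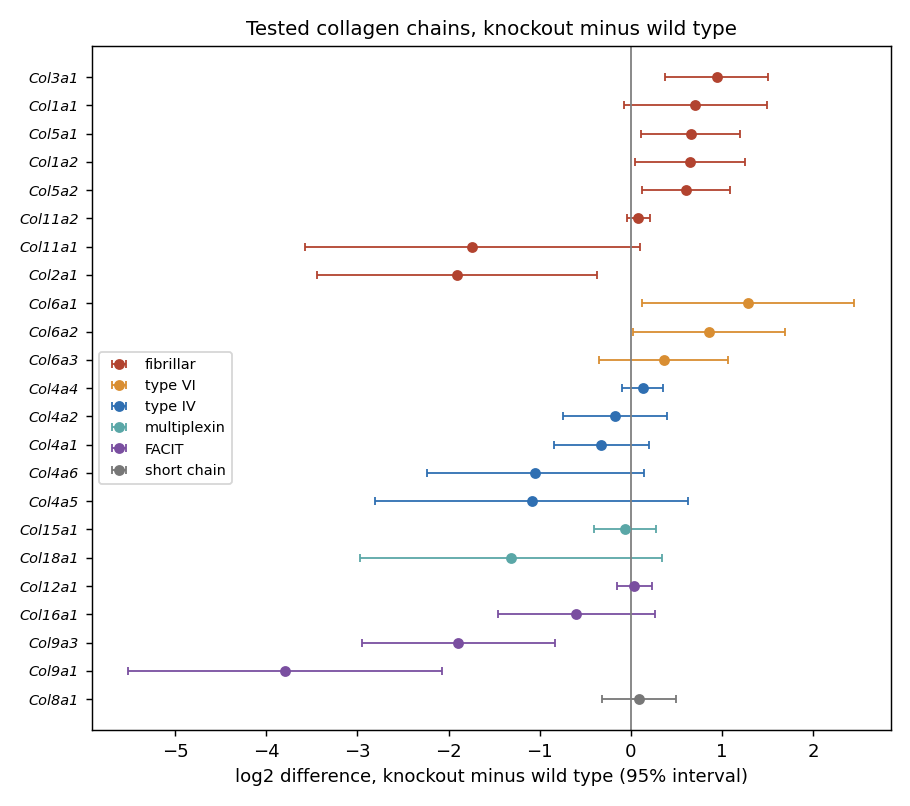
Log2 difference (x axis, knockout minus wild type) of each of the 23 tested collagen chains, with its 95% confidence interval from limma, coloured by class. The interstitial chains of types I, III, V and VI lie right of 0, Col9a1 lies farthest left at -3.79, and Col9a3, Col2a1 and Col11a1 follow between -1.90 and -1.74.

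Of the chains known from cartilage, those of types II, IX and XI, Col9a1 fell in the knockout, and Col9a3, Col2a1 and Col11a1 had lower means that did not pass the test. Col9a2 lay below the filter. Col9a1 had a log2 signal of 3.65 at the lowest, 8.58 at the median and 9.09 at the highest in the knockout, against 10.87, 11.80 and 12.44 in the wild type. The groups did not overlap, which was so for 1 of 23 chains (4.35%) and for 3.15% of all genes (1.44% lower in the knockout). The mean was 7.86 ± 2.07 in the knockout and 11.65 ± 0.59 in the wild type (SD, n = 6 each). The difference of -3.79 (SE 0.79, 95% interval -5.52 to -2.07) is a 13.9-fold lower level in the knockout (limma adjusted p = 0.0266). Knockout tumour 1, at 3.65, lay near background, while the other 5 knockout tumours lay between 8.43 and 9.09. Without knockout tumour 1 the difference was -2.95 (limma adjusted p = 0.00025). Leaving out wild-type tumour 4 (-3.64, adjusted p = 0.0666) or tumour 5 (-3.76, adjusted p = 0.0515) ended the call, as did a covariate of the mean luminal marker level (-2.78, adjusted p = 0.79). With the luminal covariate, only 1 gene of all those tested passed the threshold. The luminal means do not overlap between genotypes, so that fit cannot tell genotype and marker level apart. The Col9a1 call remained when the beta-actin difference entered the fit (-6.24, adjusted p = 0.00762). That fit separates genotype from the beta-actin difference poorly, since 5 of 6 knockout arrays lay above every wild-type array in it. Knockout tumour 1, the lowest for Col9a1, also had the lowest beta-actin difference of the knockout arrays, at 1.26. The second Col9a1 probe set differed by -3.78, with 4.48 to 6.71 in the knockout and 8.82 to 10.65 in the wild type, again without overlap.

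Col9a1 lies on chromosome 1 beside Col19a1, another FACIT chain, which was at or below background on all 12 arrays. The RefSeq table of the GRCm38.p6 build lists 2 start sites for Col9a1, 17593 bases apart on the plus strand. Their windows, 250 bases before to 50 after each start, are shown because they precede the chain with the largest difference, and capitals mark CCAAT letters, which the upstream window does not hold. Which start the probe sets report was not analysed here.
Col9a1 upstream start, chr1:24177360-24177659, plus strand: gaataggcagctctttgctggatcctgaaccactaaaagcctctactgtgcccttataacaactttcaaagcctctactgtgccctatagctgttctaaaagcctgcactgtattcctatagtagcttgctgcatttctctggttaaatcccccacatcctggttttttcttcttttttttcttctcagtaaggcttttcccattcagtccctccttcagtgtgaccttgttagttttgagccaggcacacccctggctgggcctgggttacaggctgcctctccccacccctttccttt
Col9a1 downstream start, chr1:24194953-24195252, plus strand: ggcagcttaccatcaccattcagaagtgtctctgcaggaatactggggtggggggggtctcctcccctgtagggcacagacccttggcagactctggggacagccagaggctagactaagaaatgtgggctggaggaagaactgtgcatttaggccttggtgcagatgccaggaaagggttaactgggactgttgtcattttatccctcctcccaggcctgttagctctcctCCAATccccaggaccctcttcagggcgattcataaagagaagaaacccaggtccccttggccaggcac
The downstream window holds CCAAT at position -18 from the start, letters that 37.4% of 32851 RefSeq promoters of the same length hold on either strand. Neither window holds AACAAT or ACAAAG, the letters that Sox factors of cartilage bind, which 10.7% and 18.7% of the promoters hold. Neither holds TATAAA (13.6% of promoters) or GGGCGG (35.7%). The absence says only that these letters are not in these windows.

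Col9a3, the third chain of type IX collagen, also had a lower mean in the knockout. Its signal was 5.07, 5.56 and 6.36 (lowest, median and highest) in the knockout and 5.80, 7.54 and 9.26 in the wild type. 5 of 6 wild-type tumours lay above every knockout tumour, and wild-type tumour 2, at 5.80, lay among them. The difference of -1.89 (SE 0.49) missed the threshold (limma adjusted p = 0.0558) and passed it without wild-type tumour 2 (-2.24, adjusted p = 0.0166). Only this 1 of 12 fits that left out a tumour passed, with limma adjusted p up to 0.12. A second probe set of Col9a3 differed by -1.86. Col9a2, the remaining type IX chain, lay below the filter. It was above background in 0 of 6 knockout tumours and in 3 of 6 wild-type tumours, namely 7.31 in wild-type tumour 1, 5.21 in tumour 4 and 3.86 in tumour 5. The knockout mean was lower by a factor of at least 1.36, a difference that did not pass (limma adjusted p = 0.438 in a fit over all genes without a filter). The other wild-type tumours did not exceed background, so the higher wild-type mean rests on these 3.

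Col2a1, the only chain of the main cartilage collagen, stayed within 3.41 to 4.19 in the 6 knockout tumours, close to background. In the wild type it reached 7.65, 6.40 and 8.20 in tumours 1, 4 and 5 and lay between 3.97 and 4.21 in the other 3. The mean difference of -1.90 (SE 0.71) did not pass the test (limma adjusted p = 0.16). Col11a1, a chain of type XI collagen that controls fibril width, lay between 3.74 and 4.12 in the knockout. In the wild type it was 9.13 in tumour 1, 7.52 in tumour 4 and 5.68 in tumour 6, and between 3.58 and 3.88 in the other 3. Its difference was -1.74 (SE 0.84, limma adjusted p = 0.283), or -1.03 without wild-type tumour 1, and its second probe set differed by -2.18. Wild-type tumours 1 and 4 were thus high for Col2a1, Col11a1, Col9a2 and Col9a3 together, tumour 5 for Col2a1 and Col9a3 but not Col11a1, and no knockout tumour was high for Col2a1 or Col11a1. Col11a2, another type XI chain, was near background everywhere, at 4.12 to 4.40 in the knockout and 4.05 to 4.17 in the wild type.

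**Figure D2:**
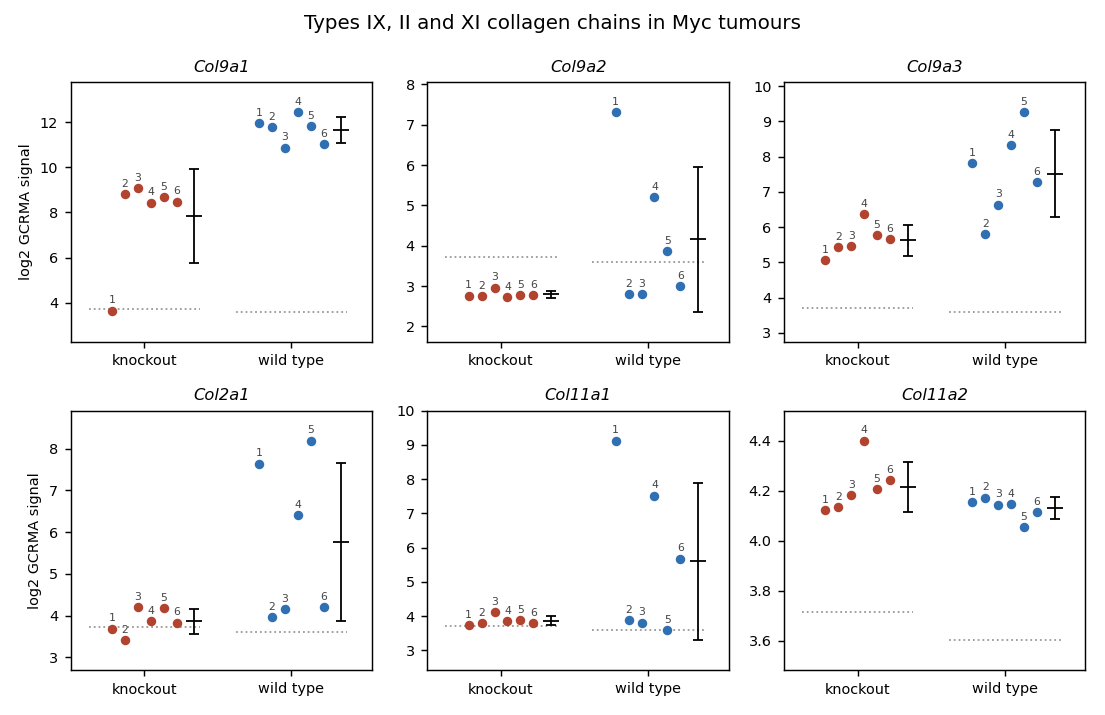
Log2 GCRMA signal (y axis) of the chains of types IX, II and XI in knockout (left) and wild-type (right) tumours. Dots are tumours with their numbers, black bars the mean and SD of 6, and the dotted line is the mean array background of each group. Col9a1 separates the groups with knockout tumour 1 at 3.65, while Col2a1 and Col11a1 are near background in all knockout tumours and high in 3 wild-type tumours each.

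Of 11 other cartilage matrix markers measured, 6 were tested with limma and 0 passed the threshold. At an unadjusted limma p under 0.05, 1 was higher and 1 lower in the knockout, beside 8.97% and 10.5% of all genes. Of the 6 tested, 5 had positive differences, and the 1 with a negative difference was that lower one. Acan, the large proteoglycan of cartilage, Cnmd, Matn1 and Matn3 were at or below background on all 12 arrays. Sox9, the transcription factor that drives cartilage genes in development, was 1 of the 5 with a positive difference, at 0.78 (limma adjusted p = 0.228). It does not stand for the whole list, which also holds the lower marker. The log2 of the summed signal of the 11 markers lay between 7.60 and 9.24 in the knockout and between 7.73 and 9.23 in the wild type.

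The fibre-forming chains of stroma, types I, III and V, all had positive differences in the knockout, with a median of 0.66 over the 5 tested, and none passed the threshold. Type I collagen is the main fibre of connective tissue, type III accompanies it and type V starts its fibrils. Col3a1 came closest, with 9.55, 10.46 and 10.92 (lowest, median and highest) in the knockout and 8.99, 9.38 and 10.12 in the wild type. 4 of 6 knockout tumours lay above every wild-type tumour. The mean was 10.36 ± 0.56 in the knockout and 9.41 ± 0.39 in the wild type (SD, n = 6 each), a difference of 0.94 (SE 0.26, limma adjusted p = 0.0691). It passed when knockout tumour 6 was left out (1.11, adjusted p = 0.0431) and when wild-type tumour 3 was (1.09, adjusted p = 0.0473). These were the lowest knockout and the highest wild-type tumour for Col3a1. Only these 2 of 12 fits that left out a tumour passed, with limma adjusted p up to 0.146. The second Col3a1 probe set differed by 0.97. The log2 of the summed signal of the 13 fibroblast markers lay between 7.29 and 7.87 in the knockout and between 7.28 and 7.85 in the wild type. Of these 13 markers, 11 lay below the filter, and 8 were at or below background on every array. The sum therefore cannot show whether fibroblast content differed between the genotypes, which was not tested.

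Col5a2 had 8.55, 9.24 and 9.43 in the knockout and 7.93, 8.45 and 8.98 in the wild type, a difference of 0.60 (SE 0.22, limma adjusted p = 0.159). Col5a1 had 6.69, 7.27 and 7.78 in the knockout and 5.95, 6.51 and 7.11 in the wild type (0.66, adjusted p = 0.171). Both chains of type V overlapped between the groups, with wild-type tumours 3 and 5 as high as some knockout tumours. Col1a1 had 8.85, 10.13 and 10.76 in the knockout and 8.65, 9.01 and 9.95 in the wild type (0.71, SE 0.36, adjusted p = 0.3). Col1a2 had 8.96, 9.71 and 10.15 in the knockout and 8.43, 8.68 and 9.87 in the wild type (0.65, adjusted p = 0.219). In both type I chains, knockout tumours 1 and 2 lay among the wild-type tumours and knockout tumours 3 to 6 above most of them. Col5a3, the third type V chain, lay below the filter and was above background in 4 of 6 knockout and 1 of 6 wild-type tumours.

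Type VI chains also had positive differences that did not pass the test. Col6a1 had 5.66, 7.61 and 8.48 in the knockout and 5.35, 5.87 and 7.30 in the wild type, a difference of 1.29 (SE 0.54, limma adjusted p = 0.207). Knockout tumours 3, 4 and 5, at 8.46, 8.48 and 8.39, lay above every wild-type tumour, whereas the other 3 lay within the wild-type range. Col6a2 had 6.34, 7.31 and 8.57 in the knockout and 6.15, 6.33 and 7.24 in the wild type (0.85, adjusted p = 0.245). Col6a3 had 6.54, 7.80 and 7.97 in the knockout and 6.53, 7.04 and 8.26 in the wild type (0.36, adjusted p = 0.549). Wild-type tumour 5 held the highest wild-type value for each of the 3 chains. Adipocyte markers were also high in some knockout tumours. The log2 of the summed signal of 7 markers lay between 7.96 and 11.91 in the knockout and between 7.95 and 8.88 in the wild type, with 0 of 3 tested past the limma threshold and Cidec, Lep and Retn at or below background on all 12 arrays. At an unadjusted p under 0.05, 2 of the 3 were higher, beside 8.97% of all genes. Their part in the type VI differences was not tested.

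**Figure D3:**
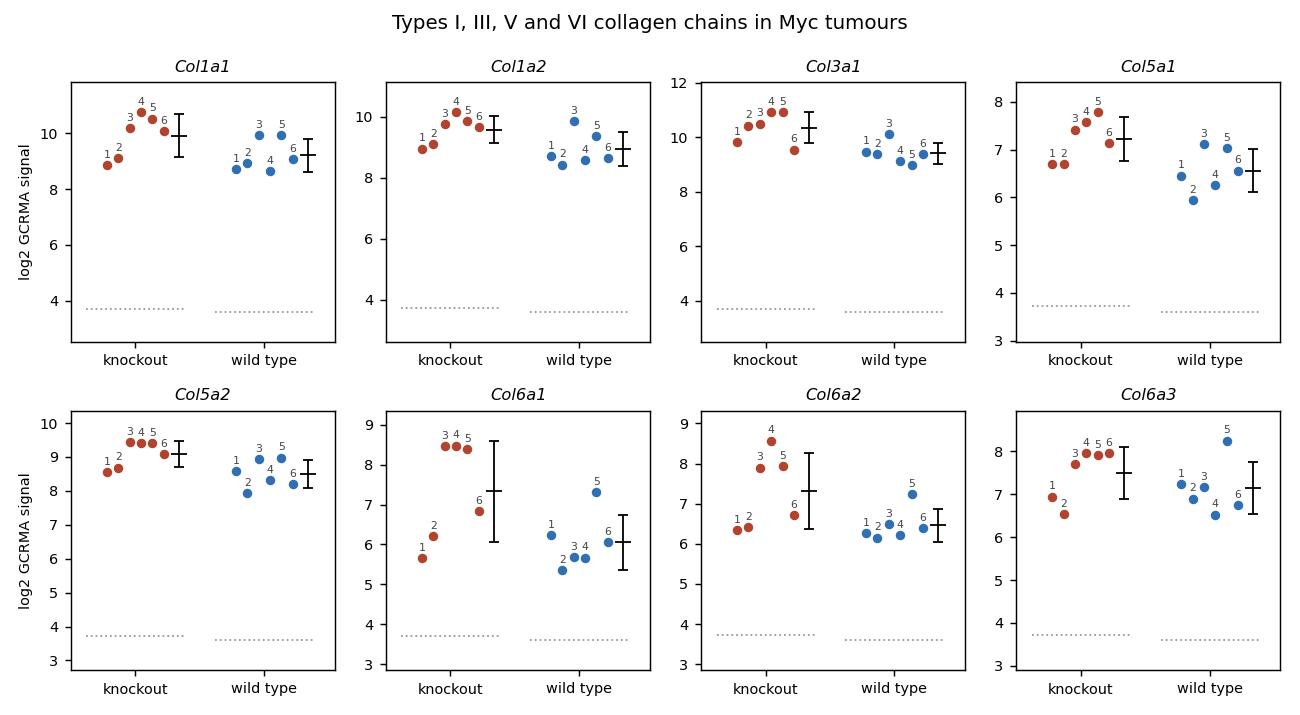
Log2 GCRMA signal (y axis) of the chains of types I, III, V and VI in knockout (left) and wild-type (right) tumours. Dots are tumours with their numbers, black bars the mean and SD of 6, and the dotted line is the mean array background of each group. Knockout tumours 3, 4 and 5 stand high in most panels, with Col6a1 near 8.4 to 8.5, and the groups overlap in every panel.

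The differences of these chains were smaller in size when the beta-actin difference entered the fit. Knockout minus wild type was then 0.58 for Col3a1, 0.22 for Col1a2, -0.01 for Col1a1, 0.27 for Col5a1 and 0.16 for Col5a2. For type VI it was -0.07 for Col6a1, 0.09 for Col6a2 and -0.15 for Col6a3. As 5 of 6 knockout arrays lay above every wild-type array in the beta-actin difference, this fit separates it from genotype poorly. The median of the fibrillar chains was then 0.11 and that of type VI -0.07. Whether RNA length shaped the differences of types I, III, V and VI was not tested.

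Type IV chains, the network of the basement membrane, did not pass the test in either direction. Col4a1 and Col4a2, which form the type IV helix found in nearly all basement membranes, had differences whose intervals include 0. Col4a1 had 8.34, 9.05 and 9.80 in the knockout and 9.01, 9.16 and 9.69 in the wild type, a difference of -0.33 (SE 0.24, 95% interval -0.85 to 0.20, limma adjusted p = 0.456). Col4a2 had 6.54, 7.02 and 7.88 in the knockout and 6.99, 7.16 and 7.85 in the wild type (-0.17, 95% interval -0.74 to 0.40, adjusted p = 0.736). The knockout values spread to both sides of the wild-type values in each chain. The genes stand head to head on chromosome 8, and their RefSeq windows (GRCm38.p6, 250 bases before to 50 after each start) overlap by 78 bases. They are shown because the chains varied together from tumour to tumour, and capitals mark the shared bases, which each line gives on its own gene's strand.
Col4a1, chr8:11312777-11313076, minus strand: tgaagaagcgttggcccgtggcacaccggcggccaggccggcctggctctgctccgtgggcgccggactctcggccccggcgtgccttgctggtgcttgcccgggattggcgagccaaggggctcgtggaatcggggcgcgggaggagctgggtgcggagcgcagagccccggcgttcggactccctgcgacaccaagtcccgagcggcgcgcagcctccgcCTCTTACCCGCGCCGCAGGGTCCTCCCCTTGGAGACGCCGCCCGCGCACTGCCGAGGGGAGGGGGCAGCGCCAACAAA
Col4a2, chr8:11312555-11312854, plus strand: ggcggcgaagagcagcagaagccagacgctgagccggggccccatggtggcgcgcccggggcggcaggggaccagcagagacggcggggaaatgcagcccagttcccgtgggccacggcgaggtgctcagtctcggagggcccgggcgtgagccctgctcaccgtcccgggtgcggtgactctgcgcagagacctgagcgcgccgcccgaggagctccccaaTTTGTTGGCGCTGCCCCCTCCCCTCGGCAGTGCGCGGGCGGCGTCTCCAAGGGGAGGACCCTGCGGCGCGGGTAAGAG
Both windows have a high GC content, 74.0% for Col4a1 and 73.7% for Col4a2, against a median of 52.7% over all promoters, and each holds CCAAT and GGGCGG on some strand but not TATAAA.

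Col4a5 and Col4a6, which share a helix in the basement membrane of some epithelia and smooth muscle and lie side by side on chromosome X, varied more than the other type IV chains. Col4a6 had 4.94, 5.79 and 7.27 in the knockout and 5.83, 6.77 and 9.39 in the wild type (-1.05, SE 0.55, limma adjusted p = 0.308). Col4a5 had 3.51, 7.38 and 8.21 in the knockout and 6.76, 7.34 and 9.99 in the wild type (-1.09, SE 0.79, adjusted p = 0.449). Knockout tumour 1 was the lowest for both chains and at background for Col4a5, and wild-type tumour 2 was the highest for both. The Col4a5 difference was -0.44 without knockout tumour 1, -0.66 without wild-type tumour 2 and -3.34 when the beta-actin difference entered the fit. The Col4a6 difference was -0.58 without wild-type tumour 2 and -2.20 with the beta-actin difference. Col4a4, a chain of the kidney and eye basement membranes, was near background, at 4.19 to 4.74 in the knockout and 4.05 to 4.48 in the wild type (0.13, adjusted p = 0.485), and its neighbour Col4a3 was at or below background on all 12 arrays.

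Neither multiplexin passed the test. Col18a1, whose C-terminal fragment is endostatin, had 5.42, 5.91 and 6.22 in the knockout and 5.65, 6.12 and 10.40 in the wild type (-1.32, SE 0.76, limma adjusted p = 0.351). Wild-type tumours 5 and 6, at 10.40 and 9.13, stood far above the other 10 tumours, which lay between 5.42 and 6.45. The second Col18a1 probe set gave 8.53 and 7.70 in the same tumours. Without wild-type tumour 5 the difference was -0.67. Col15a1 had 4.85, 5.33 and 5.85 in the knockout and 5.12, 5.34 and 5.73 in the wild type (-0.06, adjusted p = 0.845).

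**Figure D4:**
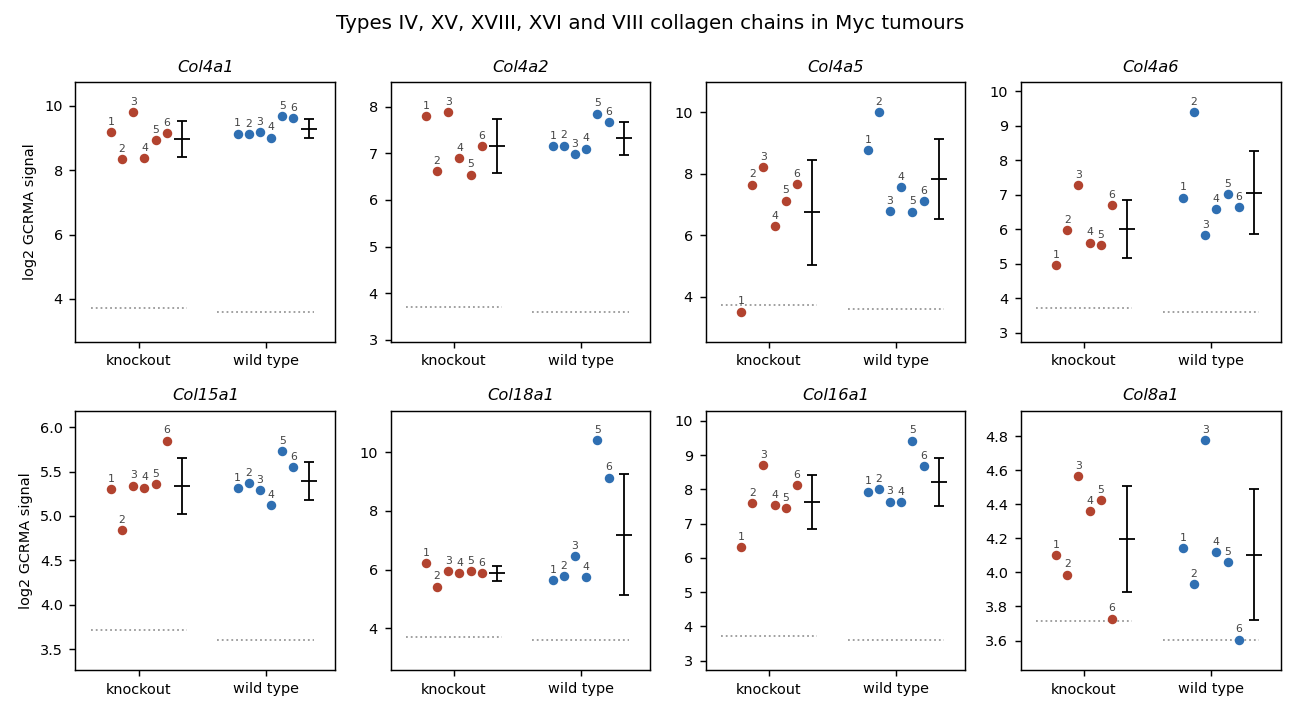
Log2 GCRMA signal (y axis) of chains of types IV, XV, XVIII, XVI and VIII in knockout (left) and wild-type (right) tumours. Dots are tumours with their numbers, black bars the mean and SD of 6, and the dotted line is the mean array background of each group. Single tumours carry much of the spread, namely knockout tumour 1 for Col4a5 (3.51), wild-type tumour 2 for Col4a6 (9.39) and wild-type tumours 5 and 6 for Col18a1 (10.40 and 9.13).

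The remaining tested chains did not pass either. Col16a1, a FACIT chain of several connective tissues, had 6.32, 7.57 and 8.70 in the knockout and 7.64, 7.96 and 9.43 in the wild type (-0.60, SE 0.40, limma adjusted p = 0.415). Its difference was -0.33 without knockout tumour 1, -0.35 without wild-type tumour 5 and -1.71 with the beta-actin difference in the fit. Col12a1, a FACIT chain on type I fibrils, had 4.88, 4.99 and 5.09 in the knockout and 4.76, 4.98 and 5.15 in the wild type (0.04, adjusted p = 0.821). Col8a1, a short chain of vessels, had 3.73, 4.23 and 4.56 in the knockout and 3.61, 4.09 and 4.77 in the wild type (0.09, adjusted p = 0.807). The groups overlapped in all 3.

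13 chains lay below the filter and were left out of the fit over 6825 genes. Of these, 7 were at or below background on all 12 arrays, namely Col4a3, Col17a1, Col19a1, Col20a1, Col22a1, Col25a1 and Col26a1. Col7a1, the chain of the fibrils that anchor epithelium to dermis, was above background in knockout tumour 1 alone, at 6.51, and between 2.37 and 2.77 in the wild type. Col10a1, a chain of the growth plate, was above background in knockout tumour 4 alone, at 3.88, against 2.14 to 2.27 in the wild type. Col13a1 and Col14a1 stayed within 3.55 to 4.04 over all 12 tumours, at the level of background. Col9a2 and Col5a3 are given above.

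**Figure D5:**
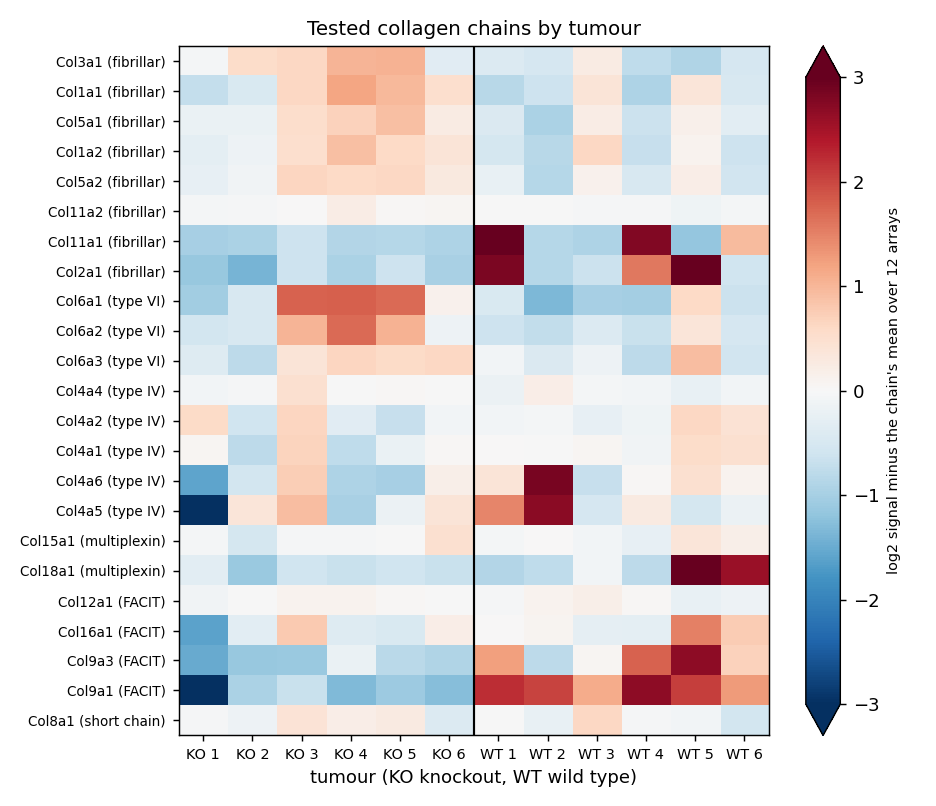
Log2 signal of each tested collagen chain (y axis, with its class) in each tumour (x axis, 6 knockout then 6 wild type) minus the chain's mean over the 12 arrays, as colour, with larger differences drawn at the ends of the scale. Chains of types I, III, V and VI are high together in knockout tumours 3, 4 and 5, and Col9a1 is low in every knockout tumour.

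Chains of types I, V and VI and the pair Col4a1 and Col4a2 varied together from tumour to tumour, whereas the type IX pair did not pass the test. Deviations from the group means were correlated over the 12 tumours for 12 pairs of chains, 4 of which were chosen after seeing the data, with permutation p-values adjusted over the 12 (the points share their array and its RNA quality). The type VI pair Col6a1 and Col6a2 had r = 0.942 and rho = 0.951 (permutation adjusted p = 0.00147 and 0.00174), and r = 0.95 without the 2 tumours farthest from the median. In every pair these 2 were picked on the first-named chain alone, so tumours extreme for the second chain could remain. The type V pair Col5a1 and Col5a2 had r = 0.937 and rho = 0.888 (permutation adjusted p = 0.00147 and 0.00232), and r = 0.926 without those farthest. The type I pair Col1a1 and Col1a2 had r = 0.924 and rho = 0.937 (permutation adjusted p = 0.00147 and 0.00174), and r = 0.913 without those farthest. All 3 pairs thus kept their relation when the tumours farthest for the first-named chain were left out.

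Col4a1 and Col4a2 had r = 0.822 and rho = 0.755 (permutation adjusted p = 0.0106 and 0.0237), and r = 0.834 without the 2 farthest tumours. Col6a1 and Col6a3 had r = 0.771 and rho = 0.762 (permutation adjusted p = 0.0127 and 0.0169), and r = 0.781 without the 2 farthest. Col15a1 and Col18a1, related chains that do not share a helix, had r = 0.558 and rho = 0.685 (permutation adjusted p = 0.0106 and 0.0301), and r = 0.903 without the 2 farthest. Wild-type tumours 5 and 6, which stood far above the others for Col18a1 (10.40 and 9.13), were not among the 2 left out. Within the knockout r was 0.513, and within the wild type 0.913. Col1a1 and Col3a1, which are laid down together but in separate helices, had r = 0.478 and rho = 0.497 and did not pass (permutation adjusted p = 0.186 and 0.165), with r = 0.176 without the 2 farthest. Neither did Col9a1 and Col9a3, with r = 0.296 and rho = 0.434 (permutation adjusted p = 0.148 and 0.0909) and r = 0.186 without the 2 farthest. The type IX chains were thus not shown to vary together within a genotype.

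Of the pairs added later, Col4a5 and Col4a6 had r = 0.792 and rho = 0.748 (permutation adjusted p = 0.00147 and 0.0169). Without the 2 farthest tumours r was 0.62 and no longer passed (permutation adjusted p = 0.0807). This pair too was chosen after seeing the data, so its correlation is a description of these tumours. The pairs with Col2a1 or Col11a1 were picked after their high wild-type tumours had been seen, and their correlations are a description of those tumours. Col2a1 and Col9a3 had r = 0.825 over the 12 tumours, 0.773 without the 2 farthest, 0.281 within the knockout and 0.87 within the wild type. Col2a1 and Col11a1 had r = 0.403, and 0.868 without the 2 farthest. Col9a3 and Col11a1 had r = 0.241, and 0.728 without the 2 farthest.

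Enzymes and chaperones that make collagen chains mostly did not pass the test. Of 16 measured, 11 were tested and 1 passed, which was lower in the knockout, beside 1.68% of all genes in that direction. Crtap, a subunit of the complex that hydroxylates a proline of type I collagen, had 6.86, 7.09 and 7.58 in the knockout and 7.56, 8.02 and 8.44 in the wild type. It fell by 0.80 (SE 0.19, limma adjusted p = 0.0415), with an overlap at the edge of the groups. Leaving out single tumours moved its adjusted p between 0.0324 and 0.095, and the call was kept in 4 of 12 such fits, those without knockout tumour 3 or 4 or wild-type tumour 1 or 2. P4ha2, a prolyl 4-hydroxylase subunit that passed the filter only through the knockout, had a difference of 1.68 (SE 0.56, adjusted p = 0.127), Colgalt1, which adds galactose to collagen, 0.29 (adjusted p = 0.3) and P4ha1, the sister subunit of P4ha2, -0.57 (adjusted p = 0.337).

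Of 10 genes for propeptide cleavage and crosslinking, 5 were tested and 0 passed, with 3 higher at an unadjusted limma p under 0.05, beside 8.97% of all genes. Tgm2, a transglutaminase that crosslinks matrix proteins, had 8.46, 9.17 and 9.83 in the knockout and 6.31, 7.67 and 8.95 in the wild type (1.43, SE 0.38, limma adjusted p = 0.0603). Pcolce, which enhances removal of the C-propeptide, differed by 0.42 (adjusted p = 0.159), and Lox, the oxidase that starts collagen crosslinks, by 0.78 (adjusted p = 0.231).

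Fibril regulators, receptors and collagen-degrading enzymes had 0 members past the threshold. Of 18 fibril regulators, 9 were tested with 0 at an unadjusted limma p under 0.05, and the smallest were those of Bgn (0.55, adjusted p = 0.272), Prelp (0.23, adjusted p = 0.288) and Fmod (0.17, adjusted p = 0.314), all leucine-rich proteoglycans of the matrix. Dcn, Lum, Dpt, Thbs2 and Tnxb were at or below background on all 12 arrays. Of 6 receptors, 3 were tested, with 1 higher and 1 lower at an unadjusted limma p under 0.05 (8.97% and 10.5% of all genes). These were Ddr1, a receptor kinase for collagen (0.42, adjusted p = 0.101), and Itgb1, the beta chain of collagen-binding integrins (-0.33, adjusted p = 0.184), and the other was Mrc2, a receptor that takes up collagen and that passed the filter only through the wild type (-0.77, adjusted p = 0.261).

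Of 11 degrading enzymes, 6 were tested, with 1 higher at an unadjusted limma p under 0.05 (8.97% of all genes). Mmp13, a collagenase, passed the filter only through the knockout, where it was high. It had 3.67, 4.97 and 8.07 in the knockout and 3.49, 3.66 and 3.86 in the wild type (1.91, SE 0.72, limma adjusted p = 0.165). Knockout tumours 4, 5 and 6, at 7.80, 8.07 and 5.60, were high, and every wild-type tumour was at the level of background. Mmp14, a membrane-bound collagenase, differed by 0.39 (adjusted p = 0.545) and Mmp9, a gelatinase, by 0.16 (adjusted p = 0.569).

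Among the partners of type IV collagen in the basement membrane, 14 were measured, 9 tested and 2 fell in the knockout, both laminin chains, beside 1.68% of all genes that fell. Lamb1, a beta chain of many laminins, had 5.11, 5.26 and 5.65 in the knockout and 5.69, 6.08 and 6.53 in the wild type, without overlap (as for 1.44% of all genes, lower in the knockout). It fell by 0.74 (SE 0.15, limma adjusted p = 0.0256), and the call was lost without knockout tumour 6 (adjusted p = 0.0547). Lama4, a laminin chain of vessel walls, had 4.93, 5.11 and 5.18 in the knockout and 5.55, 5.85 and 7.17 in the wild type, again without overlap. It fell by 1.12 (SE 0.27, limma adjusted p = 0.0436), but the call was kept in 1 of 12 fits that left out a tumour, that without wild-type tumour 2, with adjusted p between 0.0314 and 0.0785. Lamb3, a laminin chain of epithelial basement membranes, differed by 0.91 (adjusted p = 0.423). In the fit that included the beta-actin difference, the adjusted p was 0.106 for Crtap, 0.135 for Lamb1 and 0.106 for Lama4.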

How the data were processed

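Per the labels, Trizol served for total RNA, and the cRNA was labelled with biotin for Affymetrix arrays. The deposited values are log2 signals of 22690 probe sets on 12 arrays, made with GCRMA per the submitters' processing notes, with no version, and were used unchanged. All columns were matched to arrays, and 0 were unused. GCRMA draws low signals toward a floor, which compresses differences near background. Scan dates are not given in the sources used here, and no batch was tested.

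Symbols came from the platform annotation, updated through RefSeq (GRCm38.p6). Promoter windows are RefSeq's and matched 27 of 36 chains. Probe sets ending in _x_at, _s_at or _a_at can match more than 1 transcript. One probe set per gene (highest mean) was tested where its mean exceeded the median probe-set mean (3.98), with limma 3.58.1 (lmFit, eBayes with trend) in R 4.3.3, genotype as its only term, and p-values adjusted by Benjamini-Hochberg over 6825 genes at a threshold of 0.05. Where a group never exceeded background, the fold is a bound, computed with its values raised to each array's background. Permutation tests of 6 against 6 were exact and two-sided. Correlations used 100000 permutations within groups.

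The members and lists were chosen with earlier results of these data known. Every tested chain is named, and of each pathway list the members past the threshold and up to 3 others with the smallest p. Medians over types I, III and V, 4 chain pairs and some alternatives were added after seeing the data. Same-numbered arrays deviated together with correlations of -0.04 to 0.14, 2 of 6 over 0.1, so the numbers were not taken as pairs. On simulated data of this comparison with 6825 genes and 200 changed, 61% of changes of 1 and 89% of changes of 2 were recovered, with 7 false calls among 157. Whether these rates carry over to the measured arrays, where some chains varied together and had unequal spread between groups, was not tested. Figures were drawn with matplotlib 3.10.9.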

Additional observations from a re-analysis of the deposited data

Results flagged for a closer look

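In 8 of 55 groups of 6 values tested, 1 tumour stood far from the other 5 by Dixon's criterion, where chance gives about 1 in 20 groups (2.75 of 55). Knockout tumour 1 stood apart downward for Col9a1 (3.65) and upward for Col7a1 (6.51). Knockout tumour 3, whose array had the highest background of all (4.00), stood apart for Col11a1 (4.12), Col13a1 (4.04) and Col4a4 (4.74), all near that background. Knockout tumour 4 did so for Col10a1 (3.88). Among the wild-type tumours, tumour 2 stood high for Col4a6 (9.39) and tumour 5 for Col6a2 (7.24).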

How the results depend on the processing

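Of 27 alternative settings, 5 leave every fitted difference as it is. Among the 457 differences of tested chains that the other 22 settings moved, 439 kept their direction, and 13 of the 23 chains never reversed. Col9a1 was called in 24 of 28 fits, and with the replicate number as a block its adjusted p was 0.0672. The block also ended the calls of Crtap (adjusted p = 0.0819), Lamb1 (0.0845) and Lama4 (0.0967). The number of genes past the threshold was 228 as reported. It was 112 without a filter, 390 with array weights, 69 with the replicate block, 125 with knockout arrays 4 and 5 averaged, 72 with the beta-actin covariate (47 higher, 25 lower) and 1 with the luminal covariate. Without single tumours it lay between 95 and 212, with 95 without wild-type tumour 4, 150 without wild-type tumour 5, and 138, 135 and 130 without knockout tumours 4, 5 and 6. Median centring gave 68 higher and 126 lower, against 113 and 115. The number of chains lower in the knockout was 1 as reported. It was 2 with the filter at the 75th percentile or with array weights, 0 with the replicate block or the luminal covariate, and 0 to 2 without single tumours, while that of chains higher was 0 to 1. The FACIT median was -1.89 at the 75th percentile, -1.88 with the beta-actin and -0.22 with the luminal covariate. Under the beta-actin covariate the fibrillar median was 0.11 and that of type VI -0.066. The type IV median was -0.69 at the 75th percentile, -0.55 with the beta-actin and -0.52 with the luminal covariate, and -0.49 without knockout tumour 3 to -0.20 without knockout tumour 2. Differences reversed with the luminal covariate for Col11a1 (0.40), Col12a1 (-0.13), Col2a1 (1.30), Col4a4 (-0.11), Col8a1 (-0.082) and Col9a3 (0.12). They reversed with the beta-actin covariate for Col12a1 (-0.039), Col1a1 (-0.0056), Col4a4 (-0.085), Col6a1 (-0.066), Col6a3 (-0.15) and Col8a1 (-0.13). Median centring reversed Col12a1 (-0.018) and a fibroblast covariate Col8a1 (-0.073). Without single tumours Col15a1 ranged from -0.16 to 0.038, Col12a1 from -7.7e-05 to 0.077 and Col8a1 from -0.011 to 0.22. The causes were not tested. Without the 2 farthest tumours r was 0.868 for Col2a1 and Col11a1, 0.773 for Col2a1 and Col9a3, and 0.62 for Col4a5 and Col4a6.

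The number of arrays limits precision, and signals near background limit what can be said of Col2a1, Col11a1, Col11a2, Col4a4 and Col8a1. The luminal marker means do not overlap between genotypes, so in a fit with that covariate genotype and marker level cannot be told apart. The beta-actin difference overlaps little, with 5 of 6 knockout arrays above every wild-type array, so a fit with it separates the genotypes poorly. The 4 added pairs of chains were chosen after seeing the data.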

Other observations

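Knockout tumour 1 differed from the other knockout tumours in several chains at once. It was the lowest of the 6 for Col9a1 (3.65), Col4a5 (3.51), Col4a6 (4.94), Col16a1 (6.32), Col6a1 (5.66) and Col1a1 (8.85), and the only tumour of the study with Col7a1 above background (6.51). Its beta-actin difference, 1.26, was the lowest of the knockout arrays. Chad, a leucine-rich protein of cartilage, spanned 5.47 to 8.55 in the knockout and 5.46 to 6.05 in the wild type.

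Some chains lie side by side in the genome. Col3a1 and Col5a2 are neighbours on chromosome 1, and Col6a1 and Col6a2 on chromosome 10, and both members of each pair had positive differences. Both members had negative differences in the pairs Col4a1 and Col4a2 on chromosome 8 and Col4a5 and Col4a6 on chromosome X. Col9a1 (-3.79) and Col4a4 (0.13) each lie beside a chain at or below background, Col19a1 and Col4a3. Whether position bears on the differences was not tested.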
